A study of Mus musculus with 2 samples.

Results

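The Gasdermin C and D genes of the mouse ileal epithelium, Gsdmc2, Gsdmc3, Gsdmc4 and Gsdmd, were followed across cell clusters and across 2 genotypes. They are 4 of the 27998 gene rows in the count matrices and 4 of the 10 gasdermin genes listed there. They were found by symbol, and they were chosen by measured values, because earlier results of these libraries showed Gsdmc transcripts among the genes that were lower in the knockout. The difference between the genotypes is therefore given as a description, with no test.

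Gasdermins are pore-forming proteins. Most of them have an amino-terminal domain that inserts into membranes and a carboxy-terminal domain that holds it back. Proteases, mainly caspases and granzymes, cut the linker between the domains, and the freed part then forms pores that release cytokines and can kill the cell by pyroptosis. Gasdermin D is the target of caspase-1 and of caspase-11 (Casp4 in the mouse) downstream of inflammasomes. Humans have a single Gasdermin C gene, whereas the mouse has several copies side by side, which are known from the intestinal epithelium and rise there with type 2 cytokines during worm infection.

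Cells were taken from the ileum of C57BL/6 mice aged 8 weeks, either wild type (WT) or Tipe0-/-, which lack TNFAIP8, a lipid-binding protein of the TIPE family. The study took cells of several mice of each genotype together, so each genotype is 1 library and the spread between mice cannot be measured. The labels name collagenase and dispase for the digestion and speak of enteroids, whereas the methods name DNase I with dispase and freshly isolated epithelium. The WT library held 3402 cells and 38127808 UMIs (unique molecular identifiers, 1 per captured mRNA molecule), with a median of 7760 UMIs per cell, and the Tipe0-/- library 2006 cells and 23897126 UMIs, with a median of 7307.5. The targeted gene, Tnfaip8, had 372 UMIs in WT and 57 in Tipe0-/-, or 9.76 and 2.39 CPM (UMIs of the gene per 1000000 UMIs of the library). Mitochondrial genes took 6.59% and 8.56% of the UMIs, and 9 cell barcodes occurred in both libraries. The summed level of 10 T cell markers was 122 CPM in WT and 26.2 in Tipe0-/-, that of 11 tuft cell markers was 150.4 and 80.6 CPM, and that of 8 stromal and endothelial markers was 3.28 and 2.30 CPM. Sums that were higher in Tipe0-/- were those of stem (370 and 459 CPM), cycling (1711 and 2064), enteroendocrine (331 and 371) and myeloid markers (14.8 and 17.6).

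All 4 genes lie on chromosome 15 (GRCm38, GENCODE M21). Gsdmc (63775968-63808759), Gsdmc2 (63824346-63845177), Gsdmc3 (63857724-63878558) and Gsdmc4 (63891264-63912297) stand in a row on the minus strand, with the pseudogenes Gsdmcl1, Gsdmcl2 and Gsdmcl-ps between or beside them on the plus strand. The 7 genes span 149.7 kb. Gsdmd (75862327-75867408, plus strand) lies 11.9 Mb further along. The coding sequences of Gsdmc2 and Gsdmc3 share 97.1% of their aligned bases, and each shares 93.8% with Gsdmc4. Gsdmd shares between 56.6% and 56.9% with the 3 copies.

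The first 60 coding bases are printed because they show how close the copies are: the same letters stand in Gsdmc2 (15:63835884-63835943), Gsdmc3 (15:63869238-63869297) and Gsdmc4 (15:63902871-63902930), whereas Gsdmd (15:75863409-75863468) has other letters. The stretch lies in exon 4 of Gsdmc2 and in exon 2 of the others.
Gsdmc2, Gsdmc3 and Gsdmc4: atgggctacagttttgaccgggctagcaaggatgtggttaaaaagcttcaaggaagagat
Gsdmd: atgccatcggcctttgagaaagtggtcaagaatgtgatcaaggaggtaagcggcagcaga

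The 60 coding bases in which the 3 copies differ most are printed to show where their coding sequences are least alike. These bases lie before the last bases of the transcripts examined below, and whether reads of these libraries cover them was not tested. They lie in Gsdmc2 at 15:63826868-63826927, in Gsdmc3 at 15:63860298-63860357 and in Gsdmc4 at 15:63893815-63893874, in exons 11, 9 and 9 on the minus strand, and capitals mark the 15 positions at which the copies do not all have the same base.
Gsdmc2: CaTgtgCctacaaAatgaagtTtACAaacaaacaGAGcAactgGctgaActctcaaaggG
Gsdmc3: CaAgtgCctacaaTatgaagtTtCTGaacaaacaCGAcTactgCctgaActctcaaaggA
Gsdmc4: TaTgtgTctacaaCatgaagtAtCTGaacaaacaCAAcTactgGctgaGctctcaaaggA

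The libraries were made from the 3′ ends of transcripts, so the last bases decide to which copy a read is assigned. Of the 451 windows of 50 bases in the last 500 bases of the annotated transcript, 33.3% in Gsdmc2 and 38.8% in Gsdmc3 occur letter for letter in another Gasdermin C gene. In Gsdmc4 this share is 7.98%, and in Gsdmd no window occurs in another gasdermin gene. A read wholly inside such a window cannot be assigned by sequence, whereas a longer read may reach a base that differs. How reads without such a base were shared out or dropped in counting was not tested. The level of each copy is therefore uncertain, and the sum of the 3 is given beside it in the main comparisons.

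In the whole libraries the 3 Gasdermin C genes were lower in Tipe0-/- and Gsdmd differed less. Gsdmc4 had 11445 UMIs in WT (300.2 CPM) and 2014 in Tipe0-/- (84.3 CPM), or a log2 ratio of -1.83 (95% interval -1.90 to -1.76). Gsdmc2 had 6659 UMIs in WT (175 CPM) and 1280 in Tipe0-/- (53.6 CPM), or a log2 ratio of -1.70 (-1.79 to -1.62). Gsdmc3 had 2507 UMIs in WT (65.8 CPM) and 620 in Tipe0-/- (25.9 CPM), or a log2 ratio of -1.34 (-1.47 to -1.21). The sum of the 3 copies was 541 CPM in WT and 164 CPM in Tipe0-/-, or a log2 ratio of -1.72 (-1.77 to -1.67). The exact 95% Poisson intervals of the CPM do not overlap between the libraries for any of the copies. The same held for Gsdmd (48.1 to 52.6 CPM in WT and 37.2 to 42.3 CPM in Tipe0-/-). The share of all genes with such a gap was not computed, so a gap does not set these genes apart. Gsdmd had 1919 UMIs in WT (50.3 CPM) and 949 in Tipe0-/- (39.7 CPM), or a log2 ratio of -0.34 (-0.46 to -0.23). Ratios divide the Tipe0-/- level by the WT level after adding 0.5 UMIs to both sums, and all intervals cover counting error only, not the spread between mice or libraries.

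In all, 11665 genes reached 50 UMIs summed over both libraries. Their log2 ratios had a median of 0.15, and 2.43% of these genes were lower in Tipe0-/- by 2-fold or more. The 3 Gasdermin C genes belong to that share and Gsdmd does not. From the lowest ratio upwards Gsdmc4 ranked 86, Gsdmc2 ranked 111, Gsdmc3 ranked 187 and Gsdmd ranked 1004 of the 11665 genes.

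The UMIs were spread over many cells. The richest WT cell held 86 UMIs of Gsdmc4 and the richest Tipe0-/- cell 71. UMIs of Gsdmc4 were found in 1869 WT and 623 Tipe0-/- cells, and UMIs of Gsdmd in 1013 and 534 cells. Without the 10 richest cells of each library the log2 ratio was -1.95 for Gsdmc4, -1.80 for Gsdmc2, -1.45 for Gsdmc3 and -0.39 for Gsdmd.

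To place the genes in cell types, the cells were clustered without any gasdermin gene, which gave 13 clusters. Names were given from marker genes. Of the clusters, 1 was stem-like (cluster 3, led by Lgr5 and Olfm4), 2 were cycling-like (cluster 4, led by DNA replication genes such as Cdc6, and cluster 2, led by mitotic genes such as Cdc20 and Ube2c), 2 were enterocyte-like (cluster 8, led by Arg2 and Fabp6, and cluster 1, led by the apolipoprotein genes Apoa4 and Apoa1), 3 were goblet-like (clusters 0, 7 and 11), and 1 each was Paneth-like (cluster 6), tuft-like (cluster 10) and lymphocyte-like (cluster 12). The other 2 stayed unnamed: cluster 5, led by Cldn8, Slc40a1 and Edn2, and cluster 9, led by Lrg1 and Akr1c19, with all 3 Gasdermin C copies among its 10 leading genes although they had no part in the clustering.

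The Gasdermin C genes formed a steep pattern across these clusters in WT. The sum of the 3 copies was highest in the unnamed clusters, at 1477 CPM (1434 to 1522) in cluster 5 and 1272 CPM (1204 to 1342) in cluster 9. Goblet-like cluster 11 followed with 1072 CPM and tuft-like cluster 10 with 969 CPM. Cluster 11 also held enterocyte markers, summed at 2892 CPM in WT and 3607 in Tipe0-/-. These sums were 194 and 191 CPM in goblet-like cluster 7 and 173 and 195 CPM in goblet-like cluster 0. In enterocyte-like cluster 8 they were 3455 and 4098 CPM, not far above those of cluster 11. Goblet markers in cluster 11 summed to 53979 and 56634 CPM. The median depth in WT was 13086 UMIs in cluster 11, 5155.5 in cluster 7 and 15035 in cluster 0. Whether cluster 11 mixes goblet cells with enterocytes was not tested. Enterocyte-like cluster 8, at 747 CPM (705 to 790.1), and the mitotic cluster 2, at 717 CPM (694 to 740.4), had overlapping intervals and cannot be ordered. Goblet-like cluster 0 held 533 CPM, the replicating cluster 4 held 467 CPM, and goblet-like cluster 7 held 237 CPM. The lowest values were 183 CPM in enterocyte-like cluster 1, 128 CPM in stem-like cluster 3, 127 CPM in lymphocyte-like cells (interval 96.5 to 163, which overlaps that of the stem-like cluster) and 37.3 CPM in Paneth-like cells. The highest cluster was 39.6 times the lowest.

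Each copy had its peak in the same cluster in both libraries. Cluster 5 was highest for Gsdmc2 (427 CPM in WT and 209 in Tipe0-/-), for Gsdmc3 (173 and 93.2 CPM) and for Gsdmc4 (877 and 383 CPM). For Gsdmc2 and Gsdmc3 its interval overlapped that of cluster 9 in both libraries, and for Gsdmc4 it did not. The summed level in Tipe0-/- fell from 685 CPM in cluster 5 to 18.7 CPM in Paneth-like cells, with stem-like cells at 24.6 CPM and enterocyte-like cluster 1 at 20.8 CPM, 3 values whose intervals overlap. Across the 25 combinations of cluster and library with at least 20 cells, Pearson's r of log2(CPM + 1) was 0.98 between Gsdmc2 and Gsdmc4, 0.96 between Gsdmc2 and Gsdmc3 and 0.93 between Gsdmc3 and Gsdmc4. The points share 2 libraries, and the copies share sequence, so these correlations are a description.

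Gsdmd followed another pattern. Its highest level was in enterocyte-like cluster 1, with 267 CPM (250.2 to 284) in WT and 292 CPM (267 to 319) in Tipe0-/-. Enterocyte-like cluster 8 held 130.4 and 99.1 CPM, and goblet-like cluster 11 held 103 and 85.7 CPM, with overlapping intervals in both libraries. Goblet-like cluster 7 (47.9 and 31.1 CPM) and cluster 5 (41.7 and 37.0 CPM) came next. In the remaining 8 clusters, which include the stem-like, cycling-like, tuft-like and Paneth-like ones, no level was above 23.2 CPM in WT, and each interval overlapped that of the next cluster in order. Cluster 1 alone supplied 50.9% of the Gsdmd UMIs in WT and 51.7% in Tipe0-/-, but 3.25% and 0.894% of the Gasdermin C UMIs. Across the same 25 points r between Gsdmd and each Gasdermin C copy lay between -0.045 and 0.19.

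**Figure D1:**
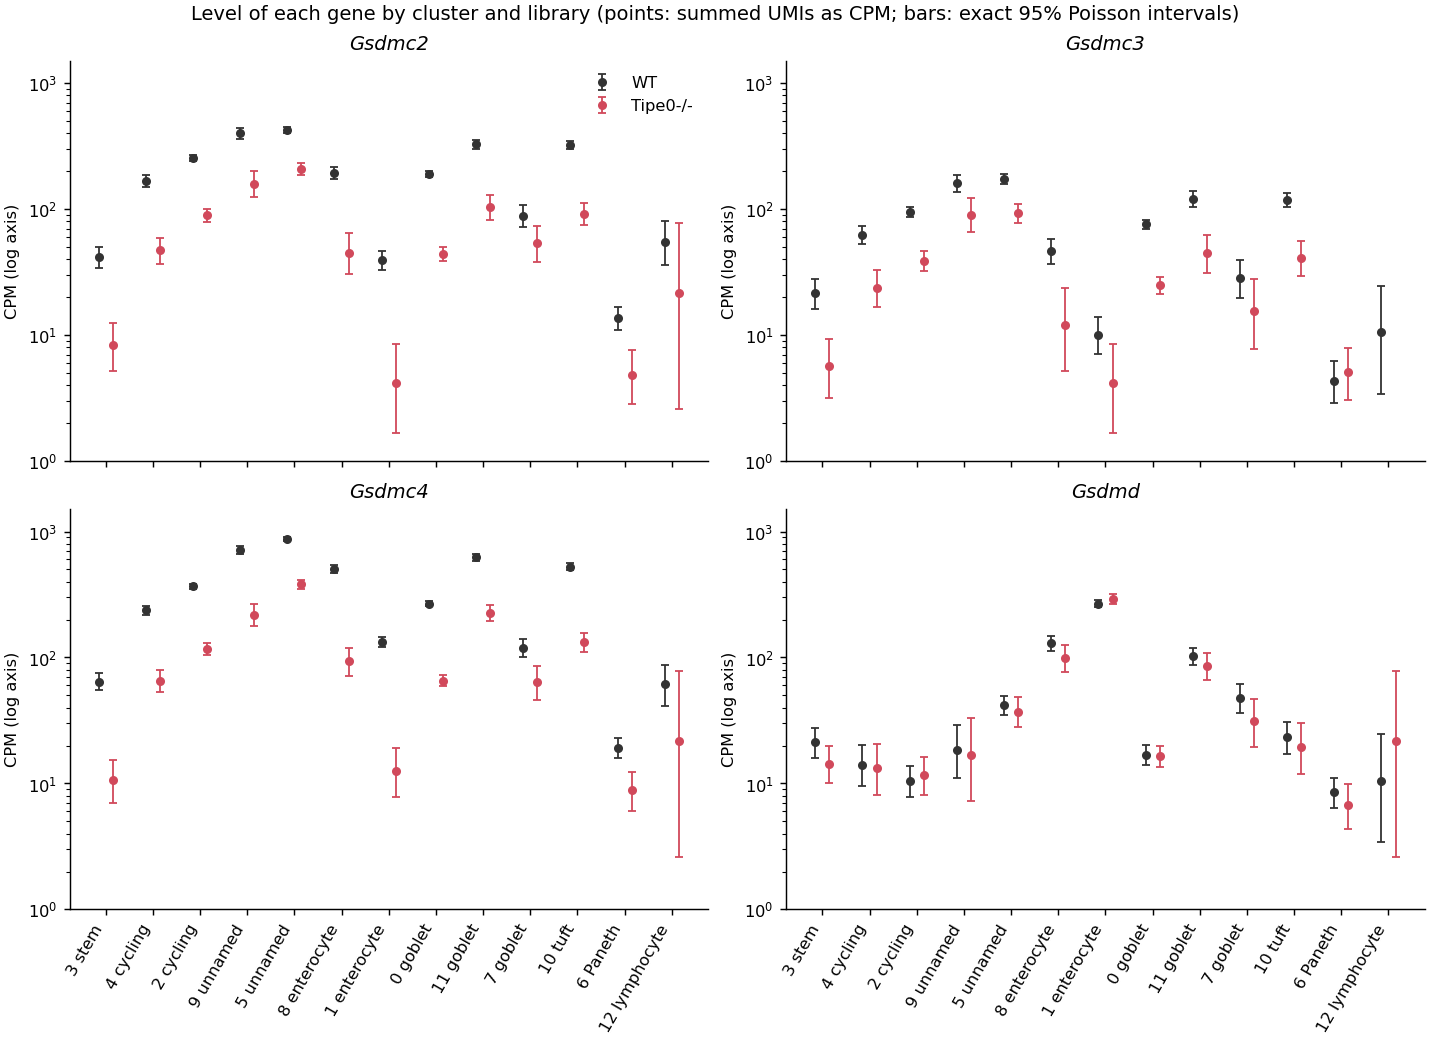
Level of Gsdmc2, Gsdmc3, Gsdmc4 and Gsdmd as CPM on a log axis (vertical) in 13 clusters (horizontal), with black points for WT, red points for Tipe0-/- and bars for exact 95% Poisson intervals; a sum of 0 UMIs is not drawn. The 3 Gasdermin C panels peak at clusters 5 and 9 and lie lower in Tipe0-/-, whereas Gsdmd peaks at enterocyte-like cluster 1, at 267 CPM in WT and 292 CPM in Tipe0-/-.

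The lower Gasdermin C level in Tipe0-/- was seen in nearly every cluster. Of the 12 clusters with at least 20 cells in each library, the log2 ratio was -1 or lower in 11 for Gsdmc4 and in 11 for Gsdmc2. Gsdmc3 had at least 50 UMIs in 9 of the 12 clusters and was 2-fold or more lower in 7 of these. The sum of the 3 copies was 2-fold or more lower in 10 of the 12 clusters. It had log2 ratios of -0.83 in goblet-like cluster 7 and -0.99 in Paneth-like cells. Gsdmd had enough UMIs in 11 clusters and was past 2-fold in 0 of them. Its interval included 0 in all 12. In WT lymphocyte-like cells, used below as background, Gsdmd had 10.5 CPM (3.42 to 24.6). The WT intervals of clusters 0, 2, 3, 4, 6, 9 and 10 overlapped this one. The part of free RNA in their Gsdmd ratios was not tested. The median over the 12 clusters was -1.77 for Gsdmc4, -1.73 for Gsdmc2, -1.33 for Gsdmc3, -1.66 for the sum of the copies and -0.19 for Gsdmd.

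The shares of all genes are given beside these counts for scale only. The Gasdermin C genes were chosen as lower in these libraries, and the clusters split the same 2 libraries. The contrast is therefore a description and adds no support. The share of all genes with enough UMIs that were 2-fold or more lower in Tipe0-/- was 1.05% in stem-like cluster 3, 1.04% in the replicating cluster 4, 0.848% in the mitotic cluster 2, 1.42% in cluster 9 and 1.64% in cluster 5. It was 2.19% in enterocyte-like cluster 8 and 1.73% in enterocyte-like cluster 1. In the goblet-like clusters it was 1.01% (cluster 0), 1.92% (cluster 11) and 1.88% (cluster 7). In tuft-like cells it was 2.44% and in Paneth-like cells 0.515%. The median log2 ratio of all genes lay between 0.0050 and 0.14 in 11 of the clusters and was 0.48 in Paneth-like cells.

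The size of the difference varied between clusters. For Gsdmc2 and Gsdmc4 it was largest in enterocyte-like cluster 1, where Gsdmc4 had 489 UMIs in 443 WT cells (133 CPM) and 21 UMIs in 226 Tipe0-/- cells (12.5 CPM), or a log2 ratio of -3.38 (-4.12 to -2.79). In the same cells Gsdmc2 had 144 and 7 UMIs, or a log2 ratio of -3.14 (-4.58 to -2.16). Gsdmc3 had 37 and 7 UMIs there, or a log2 ratio of -1.20 (-2.69 to -0.093), and its lowest ratio was -1.89, in stem-like cluster 3. The place of the enterocyte-like cells depended on how cells were named: with names given cell by cell from marker genes, the log2 ratio of Gsdmc4 in enterocyte-like cells went from -2.80 to -1.69, the smallest difference of the 6 named epithelial classes. The level left in Tipe0-/- cells of cluster 1 overlapped that of Paneth-like cells for each copy. In stem-like cluster 3 Gsdmc4 fell from 64.3 to 10.6 CPM, or a log2 ratio of -2.58 (-3.24 to -2.02), and in enterocyte-like cluster 8 from 506 to 93.1 CPM, or a log2 ratio of -2.43 (-2.84 to -2.07). Some of these WT levels overlapped those of lymphocyte-like cells, the background used below. In cluster 1 this held for Gsdmc2 (39.3 against 54.8 CPM) and Gsdmc3 (10.1 against 10.5 CPM). It did not hold there for Gsdmc4 (133 against 61.1 CPM). In stem-like cluster 3 it held for each copy. The part of free RNA in these ratios was not tested.

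In the unnamed and cycling-like clusters the log2 ratios of Gsdmc4 lay between -1.85 and -1.20. In cluster 5 the log2 ratio of Gsdmc4 was -1.20 (-1.33 to -1.07), and its interval did not overlap those of clusters 1, 3 or 8. In cluster 9 it was -1.69 (-2.01 to -1.40). In the mitotic cluster 2 it was -1.64 (-1.81 to -1.47) and in the replicating cluster 4 -1.85 (-2.19 to -1.54). Counting error alone stands behind these intervals, and whether the difference between clusters would recur in other mice cannot be told from 1 library per genotype.

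Among secretory cells, Gsdmc4 had log2 ratios of -2.02 (-2.18 to -1.87) in goblet-like cluster 0, -1.46 (-1.70 to -1.23) in goblet-like cluster 11 and -0.90 (-1.42 to -0.41) in goblet-like cluster 7, the only 1 of the 12 clusters in which neither Gsdmc2 nor Gsdmc4 was past 2-fold. In tuft-like cells, the chemosensory cells that release IL-25, Gsdmc4 had 527 CPM in 154 WT cells and 132 CPM in 49 Tipe0-/- cells. The log2 ratio was -1.99 (-2.26 to -1.73). With cells thinned at random to equal depth, the richest of these Tipe0-/- cells held 12 Gsdmc4 UMIs, beside a mean of 0.388. The richest WT cell held 15, beside a mean of 1.40. At that depth 1 cell thus held most of the Tipe0-/- UMIs, which the interval does not cover. Enterocyte markers summed to 935 CPM in WT and 341 in Tipe0-/- there. T cell markers summed to 174 and 19.6 CPM, and tuft cell markers to 2401 and 1589. Other sums were higher in Tipe0-/-: goblet markers had 4381 and 6860 CPM and cycling markers 2167 and 2633. The part of this makeup in the ratio was not tested. In Paneth-like cells Gsdmc4 had 19.2 and 8.83 CPM, its lowest values in any cluster of their library. There Gsdmc3 had 29 UMIs in WT and 19 in Tipe0-/-, or a log2 ratio of 0.25 (-0.68 to 1.12), the only positive ratio of a Gasdermin C copy in the 12 compared clusters. The lymphocyte-like cluster had 17 Tipe0-/- cells and was not compared.

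Gsdmd was close to equal where it was most abundant. In enterocyte-like cluster 1 it had 977 UMIs in WT and 491 in Tipe0-/-, or a log2 ratio of 0.13 (-0.027 to 0.29), beside a median of 0.14 for all genes of that cluster. The lowest ratio was -0.60 (-1.40 to 0.11) in goblet-like cluster 7 and the highest 0.15 (-0.52 to 0.79) in the mitotic cluster 2. Over the 3 goblet-like clusters together it had 34.8 CPM in WT and 24.9 CPM in Tipe0-/-, or a log2 ratio of -0.48 (-0.75 to -0.23), whose interval lies below 0. Within clusters 0, 11 and 7 the log2 ratios were -0.040, -0.26 and -0.60, and each interval included 0. Cluster 11, with the highest Gsdmd level of these, made up 3.41% of the WT and 2.79% of the Tipe0-/- cells. Cluster 0, with the lowest, made up 13.0% and 16.5%. The part of this makeup in the pooled ratio was not tested. Cluster 1 made up 13.0% of the WT cells and 11.3% of the Tipe0-/- cells, and cluster 8 made up 5.11% and 3.69%. After the cell classes were given equal weights in the libraries, the whole-library log2 ratio of Gsdmd moved from -0.34 to -0.034, while those of Gsdmc2 and Gsdmc4 moved to -1.58 and -1.71.

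**Figure D2:**
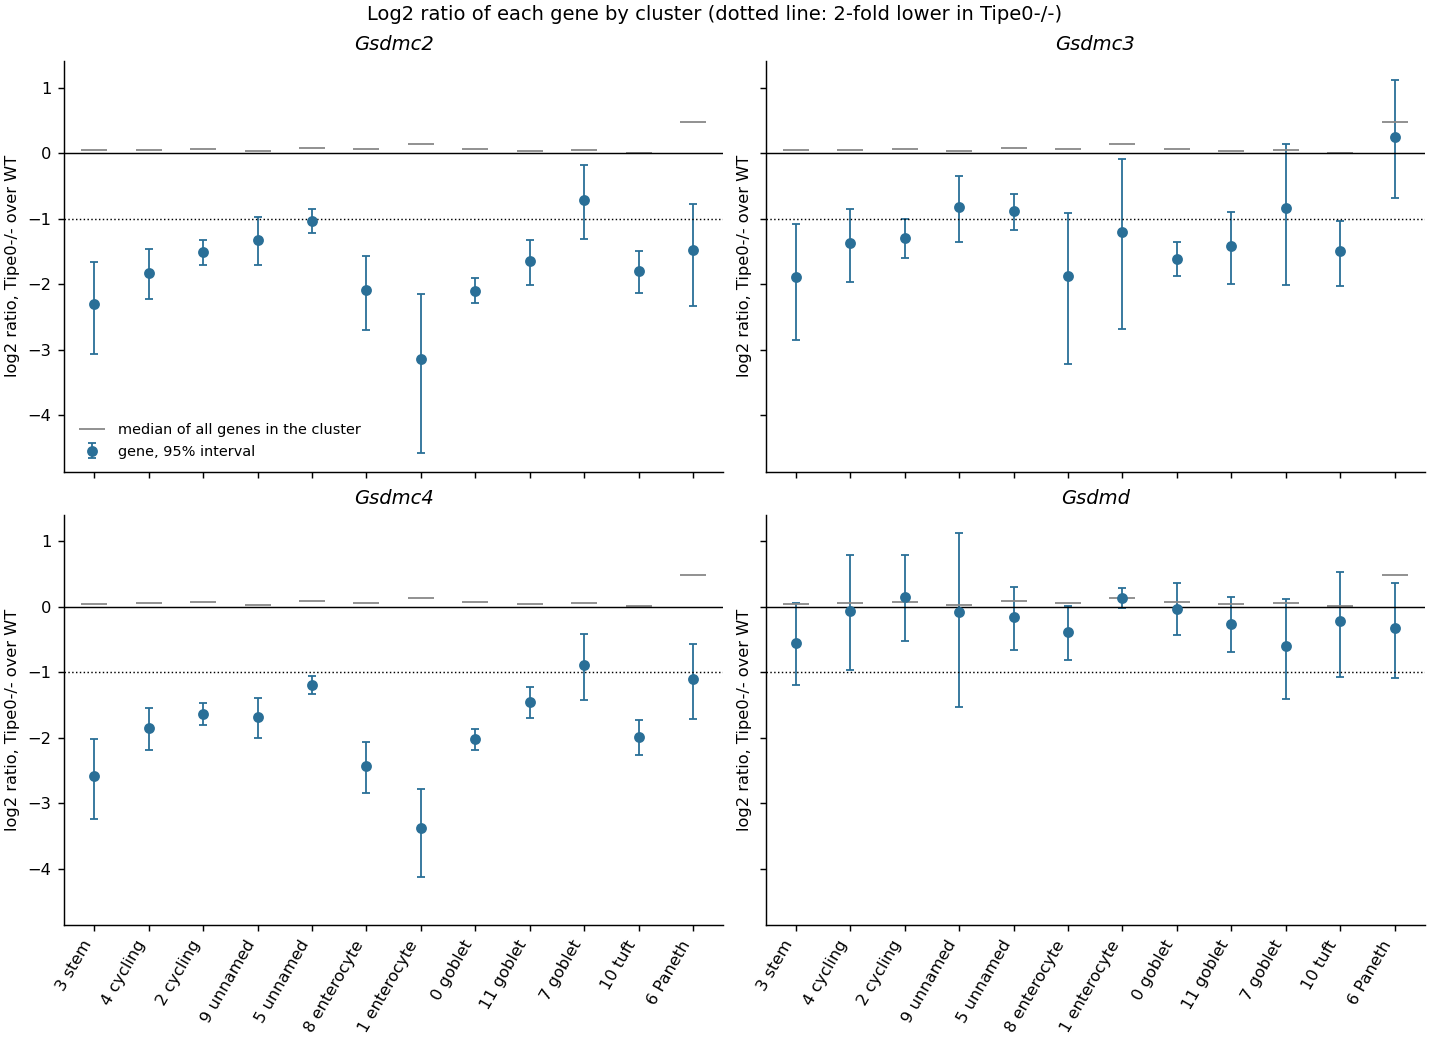
Log2 ratio of Tipe0-/- over WT (vertical) for the 4 genes in the 12 clusters with at least 20 cells in each library (horizontal), with 95% intervals for counting error; grey dashes mark the median of all genes in each cluster and the dotted line a 2-fold lower level. Gsdmc4 is lowest in enterocyte-like cluster 1, at -3.38, and the Gsdmd values lie between -0.60 and 0.15.

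Shares of cells gave the same picture at equal depth. Each cell was thinned to 3000 UMIs at random. A UMI of any of the 3 Gasdermin C copies was then found in 48.1% of cells from WT (95% Clopper-Pearson interval 46.4% to 49.8%) and 25.1% from Tipe0-/- (23.2% to 27.1%), against 63.5% and 41.2% before thinning. A UMI of Gsdmd was found in 14.5% (492 cells) and 13.5% (270 cells), whose intervals overlap.

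In cluster 5, 90.2% of cells from WT (86.4% to 93.2%) and 77.3% from Tipe0-/- (70.1% to 83.5%) held a Gasdermin C UMI. In cluster 9 these shares were 87.5% and 54.5%, and in the mitotic cluster 2 they were 71.4% and 41.8%. In enterocyte-like cluster 8 they were 63.8% and 23.0%, and in enterocyte-like cluster 1 they were 24.8% (20.9% to 29.1%) and 3.54% (1.54% to 6.86%). In cluster 5 cells with a UMI had on average 4.94 UMIs in WT and 2.75 in Tipe0-/- after thinning. Both measures fall when the level per cell falls, so fewer cells with the transcripts and fewer transcripts per cell cannot be told apart here.

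Lymphocyte-like cells should lack the epithelial Gasdermin C genes and were used as the background of free RNA. Their cluster was not pure: enteroendocrine markers summed to 2690 CPM in WT and 10.8 CPM in Tipe0-/-. Stromal and endothelial markers summed to 213 and 21.6 CPM there. The background is therefore approximate and not alike in the 2 libraries. Of the 91 WT lymphocyte-like cells 13.2% (an interval up to 21.9%) held a Gasdermin C UMI after thinning, and of the 17 Tipe0-/- cells 5.88% (0.149% to 28.7%), at median depths of 4456 and 4315 UMIs before thinning. Such a UMI was found in 31 of 282 WT and 8 of 139 Tipe0-/- Paneth-like cells, and in 28 of 196 WT and 18 of 129 Tipe0-/- cells of goblet-like cluster 7, all shares within the interval of the lymphocyte-like cells of their library. The stem-like share of 23.1% (18.5% to 28.2%) in WT overlaps that of lymphocyte-like cells too, and in Tipe0-/- the stem-like share was 5.28% (2.92% to 8.71%). The WT share of enterocyte-like cluster 1, 24.8% (20.9% to 29.1%), overlaps the WT lymphocyte-like interval as well. In Tipe0-/- the interval from 17 cells is wide, and the shares of cluster 1, of goblet-like cluster 0 (24.5%), of the replicating cluster 4 (22.2%), of enterocyte-like cluster 8 (23.0%) and of tuft-like cluster 10 (26.5%) lie within it as well. By share alone these cannot be told from background. The part of free RNA in their difference between the libraries was not tested. The summed level in Tipe0-/- lymphocyte-like cells was 43.2 CPM (11.8 to 111), from 4 UMIs. In Tipe0-/- clusters 0 (126 to 144), 4 (118 to 156), 8 (122 to 183) and 10 (235 to 299) lay above this interval. Those of clusters 1, 3, 6 and 7 overlapped it. In Tipe0-/- cluster 10 the richest cell held 20 Gasdermin C UMIs after thinning, beside a mean of 0.714 over 49 cells. Its interval does not cover this. In WT, clusters 1 (169 to 197) and 7 (210 to 266) lay above the lymphocyte-like 127 CPM (96.5 to 163). For Gsdmd the lymphocyte-like shares were 2.20% in WT and 5.88% in Tipe0-/-, against 55.3% and 58.8% in enterocyte-like cluster 1.

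**Figure D3:**
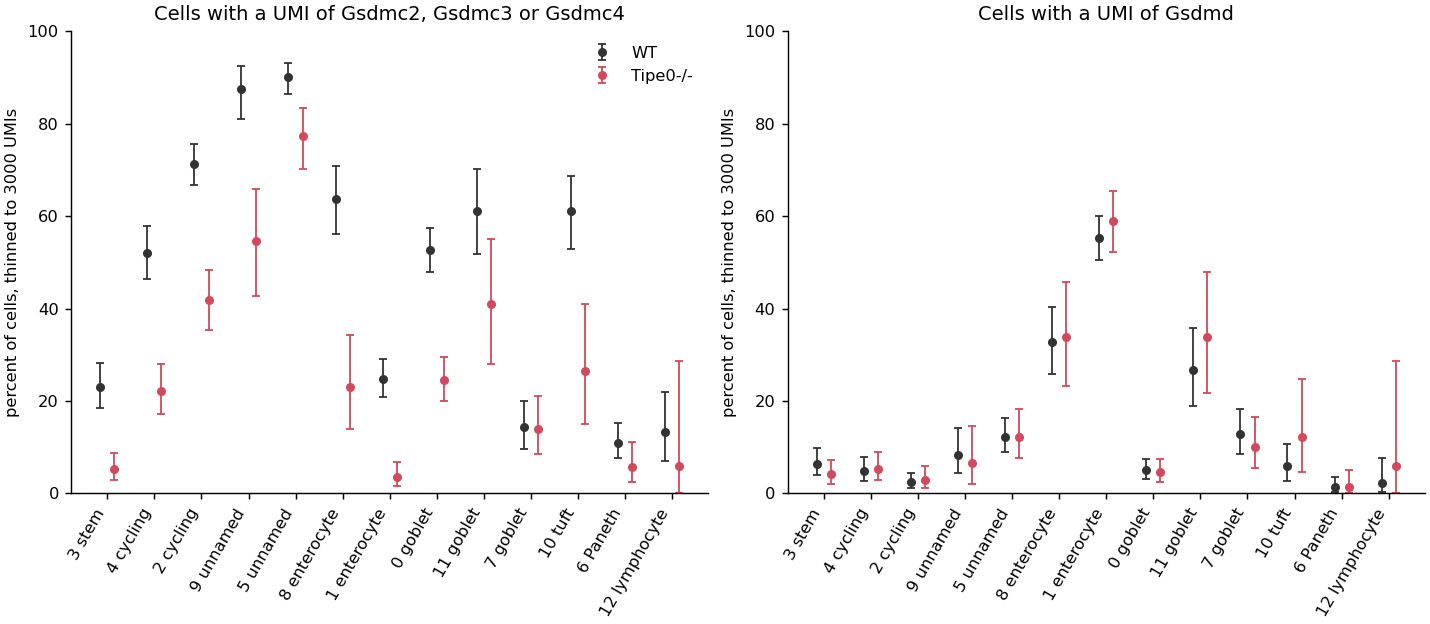
Percent of cells, each thinned to 3000 UMIs, with at least 1 UMI of Gsdmc2, Gsdmc3 or Gsdmc4 (left) or of Gsdmd (right) in 13 clusters and both libraries, with exact 95% Clopper-Pearson intervals. Cluster 5 has the highest Gasdermin C shares, 90.2% in WT and 77.3% in Tipe0-/-, and lymphocyte-like cells, at 13.2% and 5.88%, were used as an approximate background.

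The copies were often found together. After thinning, 24.6% of WT cells held UMIs of 1 copy, 15.7% of 2 and 7.88% of all 3, against 17.4%, 6.53% and 1.20% in Tipe0-/-. Among WT cells of cluster 5 the shares were 29.8%, 36.2% and 24.2%. Gsdmd and Gasdermin C transcripts were found together in 185 of the 3402 WT cells and 40 of the 2006 Tipe0-/- cells. These counts depend on the thinned depth and on the low level of Gsdmd. In WT, Gsdmd was found in 11.3% of cells with a Gasdermin C UMI and in 17.4% of the rest. In Tipe0-/- these shares were 7.94% and 15.3%. Within enterocyte-like cluster 8, where both are expressed, Gsdmd was found in 32.4% of the 111 WT cells with a Gasdermin C UMI and in 33.3% of the WT cells without 1. In cluster 1 these shares were 48.2% and 57.7%, and in goblet-like cluster 11 they were 18.3% of 71 cells and 40% of the rest, given as a description. In cluster 9 all 12 WT cells with Gsdmd were among the 126 with a Gasdermin C UMI.

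The split among the copies shifted a little with cell type. In the whole WT library 55.5% of the Gasdermin C UMIs were assigned to Gsdmc4, 32.3% to Gsdmc2 and 12.2% to Gsdmc3. In Tipe0-/- these shares were 51.5% (49.9% to 53.0%), 32.7% (31.2% to 34.2%) and 15.8% (14.7% to 17.0%). Gsdmc4 took a larger share in WT enterocyte-like cells, with 73.0% (69.5% to 76.3%) in cluster 1 and 67.7% (65.0% to 70.3%) in cluster 8, than in stem-like cells with 50.3% (44.8% to 55.8%) or in the mitotic cluster 2 with 51.1% (49.4% to 52.7%). Gsdmc3 took 5.52% in cluster 1 and 6.26% in cluster 8, against 16.9% in stem-like cells. UMIs are counted once per molecule from the 3′ end and do not grow with transcript length, but the shared windows of Gsdmc2 and Gsdmc3 enter these shares.

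Enterocytes change their genes as they move from the bottom to the tip of the villus. The enterocyte-like cells were cut into 3 bins of equal size along a score, the mean of tip genes such as Ada and Apoa4 minus that of bottom genes such as Nlrp6 and Il18, and 212 cells lay within 0.1 of a limit. In WT Gsdmc4 went from 284 CPM in the bottom bin to 266 CPM in the middle and 125 CPM at the tip, and in Tipe0-/- from 51.9 to 42.3 and 14.9 CPM. Gsdmd went the other way, from 185 to 229 and 316 CPM in WT and from 148 to 233 and 311 CPM in Tipe0-/-. The bottom bin held 247 WT and 59 Tipe0-/- cells and the tip bin 168 and 138, so the libraries differed in how their enterocyte-like cells were spread over the score. Genes of the score differed between the libraries themselves: over the whole libraries Reg3g, a bottom gene, had a log2 ratio of -0.90 and Lypd8 -0.84, and within bins Nlrp6 was at 0.80 in the middle and Apoa4 at -1.01 at the tip. The bins are therefore ranges of a score and not matched positions on the villus.

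Within each bin the difference between the genotypes remained. The log2 ratio of Gsdmc4 was -2.43 (-3.01 to -1.94) in the bottom bin, -2.64 (-3.17 to -2.18) in the middle and -3.02 (-4.06 to -2.22) at the tip, with overlapping intervals. For the sum of the copies it was -2.32 (-2.78 to -1.93), -2.54 (-2.96 to -2.17) and -2.51 (-3.20 to -1.93). For Gsdmd it was -0.32 (-0.67 to 0.0016), 0.025 (-0.22 to 0.27) and -0.024 (-0.27 to 0.22).

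**Figure D4:**
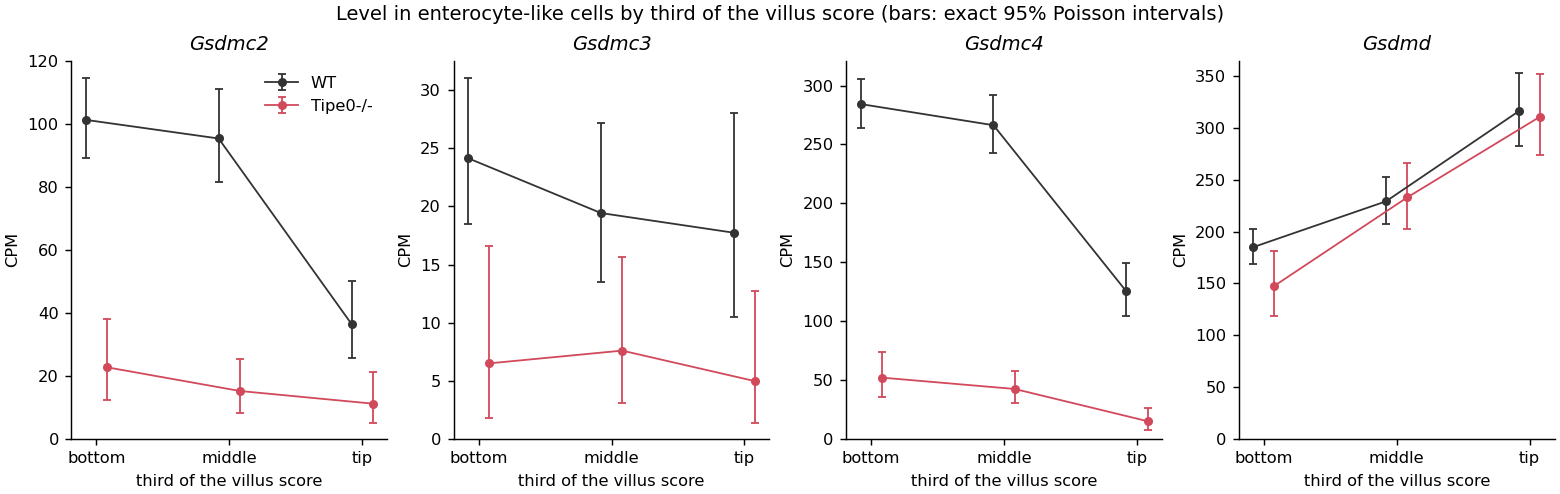
Level as CPM (vertical) of the 4 genes in enterocyte-like cells cut into 3 bins of a villus score (horizontal), for WT (black) and Tipe0-/- (red), with exact 95% Poisson intervals. Gsdmc4 falls from 284 to 125 CPM towards the tip in WT, and Gsdmd rises from 185 to 316 CPM.

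The genes whose levels followed the Gasdermin C sum most closely over the 25 points, among 7953 genes with at least 500 UMIs, were Myl7 (r = 0.95), Lrg1 (0.87), Ethe1 (0.87), Ndufs5 (0.86), Ndufb10 (0.86), Capg (0.85), Dmbt1 (0.85) and Slc28a3 (0.84). Myl7, a myosin light chain gene, had 58.9 CPM in WT and 24.4 CPM in Tipe0-/-, and Lrg1, which encodes a secreted leucine-rich glycoprotein, had 26.9 and 5.52 CPM. The levels of the other 6 differed by less than 2-fold between the libraries. The 25 points cover both libraries, so this ranking favours genes that were lower in Tipe0-/- and is a description. Closest to Gsdmd were H2-Q2 (0.99), Ace (0.98), Pls1 (0.97), Tmc5 (0.97), Xpnpep2 (0.97), Neu1 (0.96), Slc3a1 (0.96) and Aspa (0.96). All 8 were highest in enterocyte-like cluster 1; Ace and Xpnpep2 encode peptidases and Pls1 a bundling protein of the brush border.

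Of the other gasdermin genes only Dfna5, which encodes Gasdermin E, had many UMIs. It had 990 in WT (26.0 CPM) and 953 in Tipe0-/- (39.9 CPM), or a log2 ratio of 0.62 (0.49 to 0.75), opposite in sign to all 4 members and within 2-fold; 1.53% of all genes were 2-fold or more higher. Its highest level was in enterocyte-like cluster 1, with 74.8 CPM in WT and 145 CPM in Tipe0-/-. Gsdmc had 9 and 4 UMIs, Gsdma 8 and 8, Gsdma2 2 and 4, Dfnb59 1 and 1, and Gsdma3 had 0 of 38127808 and 0 of 23897126 UMIs.

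Most genes that act around the gasdermins were within 2-fold. Of all genes 2.43% were 2-fold or more lower, and the median log2 ratio over all genes was 0.15. Below that median lay 7 of 8 proteases, 10 of 12 inflammasome genes, 8 of 10 regulators of Gasdermin D, 4 of 4 guanylate-binding genes and 7 of 8 genes of IL-4 and IL-13 signalling with enough UMIs. Of 10 proteases that cut gasdermins, 8 had at least 50 UMIs, and 2 of these, Gzma and Gzmb, were 2-fold or more lower. Both encode granzymes, proteases of cytotoxic lymphocytes. Gzma went from 60.4 to 10.9 CPM and Gzmb from 17.6 to 2.09 CPM. Lymphocyte-like cells held 68.9% and 73.7% of their WT UMIs, and these cells were 91 in WT and 17 in Tipe0-/-. Without them the log2 ratios were -1.65 for Gzma and -1.79 for Gzmb. In the other WT clusters Gzma was at most 62.9 CPM, in tuft-like cluster 10, against 3346 CPM in lymphocyte-like cells. It had 49.0 CPM in WT and 50.7 CPM in Tipe0-/- in cluster 5, and was lower in Tipe0-/- in every other cluster. The part of free RNA or of lymphocytes in other clusters in these ratios was not tested. Casp1, the inflammasome caspase that cuts Gasdermin D, had 61.4 and 59.8 CPM, Casp4 had 33.6 and 24.5 CPM, and Casp8 had 76.3 and 92.8 CPM, all within 2-fold.

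Of 17 inflammasome sensors and adaptors 12 had enough UMIs and 1 was 2-fold or more lower, with a median log2 ratio of 0.015 over the 12. That gene was Zbp1, a sensor of Z-form nucleic acids, which had 45.7 CPM in WT and 15.7 CPM in Tipe0-/-, or a log2 ratio of -1.54 (-1.70 to -1.38), and was highest in enterocyte-like cluster 1. Nlrp6 had 94.9 and 102 CPM, Dhx15, an RNA helicase that works with it, had 95.3 and 122 CPM, and Nlrp9b had 8.16 and 6.78 CPM. Pycard, the adaptor that joins sensors to caspase-1, had 1093 and 978 CPM. Of the cytokines and the rupture protein, Il18 had 16.5 and 15.3 CPM and Ninj1 14.9 and 12.8 CPM, and neither was past 2-fold.

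Of 10 regulators of Gasdermin D all had enough UMIs and 0 were past 2-fold, with a median log2 ratio of -0.075. Irf2, a transcription factor known to drive Gsdmd, had 28.1 and 34.0 CPM, Irf1 had 72.4 and 47.9 CPM, and Rraga, of the Rag GTPases that pore formation needs, had 34.1 and 42.3 CPM. Chmp3, of the ESCRT machinery that repairs membranes, had 78.5 and 68.7 CPM. Of the guanylate-binding proteins and related GTPases, which expose bacteria to caspase-11, 4 of 8 had enough UMIs and 2 were 2-fold or more lower, against 2.43% of all genes, with a median log2 ratio of -1.02 over the 4. Gbp2 had 5.40 and 2.09 CPM and Gbp7 9.49 and 4.35 CPM, whereas Gbp3, with 2.18 and 1.13 CPM, and Irgm1, with 35.4 and 27.7 CPM, were within 2-fold.

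Of the 8 genes of IL-4 and IL-13 signalling, which is known to raise Gasdermin C genes in the gut, 1 was 2-fold or more lower: Il2rg, the shared receptor chain of lymphocytes, with 44 UMIs in WT and 6 in Tipe0-/-, of which lymphocyte-like cells held 22 and 3. The median over the 8 genes was -0.070. The epithelial receptor chains Il4ra (22.0 and 17.7 CPM) and Il13ra1 (47.7 and 41.0 CPM) and the transcription factor Stat6 (26.4 and 32.5 CPM) were within 2-fold. Of the 7 villus bottom genes 1 was 2-fold or more higher, Reg1, with 4.04 and 12.5 CPM. The abundant members were lower within 2-fold, with log2 ratios of -0.68 for Reg3b, -0.90 for Reg3g and -0.84 for Lypd8, and 6 of the 7 lay below the median of all genes. Of the 6 villus tip genes with enough UMIs 0 were past 2-fold.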

How the data were processed

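Per the labels and the study's methods, the authors prepared the 2 libraries with 10x 3′ v2 chemistry, aligned the reads to mm10 and deposited raw UMI counts per gene and cell from Cell Ranger. The equalization of depth described in the methods is not part of these counts. The annotation release behind the 27998 gene rows is not given in the sources used here. From the counts, UMIs were summed per library or cluster and divided by the total (CPM). Members and gene lists were chosen with earlier results of these data known. The named genes are the members, other gasdermins, genes of fixed lists past 2-fold or else at the ends of each list, and the 8 closest by Pearson's r.

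Cells were clustered with Seurat 5.3.0 (R 4.3.3) on 531 of 582 variable genes, without gasdermin genes and without genes of the study's own genotype comparison, with 14 principal components and resolution 0.8. Naming a cluster took 3 markers, each with a UMI in 10% of its cells or more and 1.5 times as often as elsewhere; T and B cell markers shared 1 cluster, and this was treated as lymphocyte-like after its markers had been seen. Scrublet (Scanpy 1.11.5) called 15 and 3 doublets, too few to rely on, and no cell was removed. The study's own comparison tables were read for gene names only. Scripts ran in Python 3.11.15 with numpy 2.4.6 and scipy 1.17.1, and sequences were aligned with Biopython 1.88. The code for ratios and intervals was run on library sums simulated with counting error only. That run held no spread between cells or mice and cannot tell how well the intervals cover it. No p-value was computed, since each genotype has 1 library. One gene of the protease list is not reported here.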

Additional observations from a re-analysis of the deposited data

How the results depend on the processing

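No paired analysis was possible because each genotype has 1 library. The 3 Gasdermin C genes stayed 2-fold or more lower in Tipe0-/- in the whole libraries under all 30 alternatives, and no whole-library ratio of the 4 genes changed sign. Values that moved beyond their counting interval follow, as log2 ratios. Scaling to the median of all genes gave -1.86 for Gsdmc2, -1.50 for Gsdmc3, -1.99 for Gsdmc4 and -0.50 for Gsdmd. An equal makeup of classes gave -1.58, -1.71 and -0.034 for Gsdmc2, Gsdmc4 and Gsdmd. Averages of log-normalized expression gave -1.30, -1.32 and -0.21 for the same 3 genes. Without the 10 richest cells Gsdmc2 was at -1.80 and Gsdmc4 at -1.95, and thinning to 3000 UMIs gave -1.59 for Gsdmc2 and -0.076 for Gsdmd. Without cluster 5, which held more WT UMIs of Gsdmc4 than any other cluster, that gene was at -1.95; leaving out the cluster with most UMIs and leaving out shared barcodes were added after seeing the data. The cause of these shifts was not tested. Without the filter on low counts the median of all genes was 0.14 and 7.14% of all genes were 2-fold or more lower. Medians over classes stayed within the spread between classes under other variable genes and other naming, but 10 of 72 ratios and 61 of 144 levels within single classes moved. Of these 72 ratios 68 kept their sign. With each cell named by its own markers Gsdmc4 in enterocyte-like cells went from -2.80 to -1.69, with 124 instead of 35.4 CPM in Tipe0-/-, and Gsdmc2 in WT stem-like cells ranged from 13.4 to 89.7 CPM. Shares of cells depended on depth by construction. Without thinning they were 46.9%, 31.2%, 54.9% and 29.8% in WT for Gsdmc2, Gsdmc3, Gsdmc4 and Gsdmd, and 26.3%, 17.2%, 31.1% and 26.6% in Tipe0-/-. With at least 2 UMIs required they were 11.1%, 3.29%, 20.3% and 3.47% in WT, and 3.14%, 0.847%, 4.89% and 3.19% in Tipe0-/-. One library of pooled mice per genotype leaves the spread between mice unknown, and counting intervals do not cover it.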
